A study of Homo sapiens with 6 samples.

Results

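Narrow accessible regions, those less than 150 bp wide, were examined in NB4 cells after depletion of SMARCD2. The deposited region tables were pooled and every row with a width under 150 bp was kept, which gave 308 of 591 regions. Of these, 174 of 323 came from the table for DMSO and 134 of 268 from the table for all-trans retinoic acid (ATRA). NB4 is a human acute promyelocytic leukaemia line that matures towards granulocytes in ATRA. The groups were undifferentiated cells in DMSO and differentiated cells in 1 µM ATRA. Each treatment had 1 control library and 2 SMARCD2 knockdown libraries, made with the short hairpins shRNA1 and shRNA2. The cell line is the same in all 6 libraries, each made from 50000 cells, and the labels give neither separate cultures nor clones. Spread between the hairpins is therefore the only replicate error, it may be technical in part, and the control has none.

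ATAC-seq reads mark DNA that the transposase Tn5 could enter. A nucleosome wraps a stretch of DNA about as long as the width limit used here, and active promoters and enhancers usually show longer accessible stretches. SMARCD2 is a subunit of the BAF (SWI/SNF) remodelling complexes, which slide or evict nucleosomes, and it is known for its role in the maturation of neutrophil granules.

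The recovered library sizes were between 11497000 and 17632000 reads, and the control was the smallest library in both treatments. Both tables list only regions for which the authors' test gave an unadjusted p under 0.005 and a gene lay within 9992 bp. Every region was thus listed because its libraries differed, and a test repeated on them is not independent evidence. A free-text note on the control in DMSO names ATRA, while the title and stage label of that library give the undifferentiated state, and the title was followed. The tables hold no transcript levels and no region of SMARCD2, so neither the knockdown nor the cell type could be checked against marker genes.

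Narrow regions carried few reads. In DMSO the reads per region ranged from 0 to 72 with shRNA1 (median 10), from 0 to 92 with shRNA2 (median 10) and from 0 to 124 in the control (median 0). In ATRA the ranges were 0 to 82 with shRNA1 (median 10), 1 to 87 with shRNA2 (median 10) and 0 to 124 in the control (median 0). Thus the typical narrow region had about as many reads with either hairpin in both treatments and none in the control. The wide regions had medians of 36, 43 and 26 reads in DMSO and of 43.5, 45 and 21 in ATRA, in the same order of libraries. The difference was smaller per length: the shRNA1 median was 10.1 reads per 100 bp in narrow and 14.1 in wide regions in DMSO, and 10.5 against 13.8 in ATRA. In the control it was 0 against 8.97 in DMSO and 0 against 5.86 in ATRA. Only 1 narrow region in DMSO and 2 in ATRA held more than 100 reads over the 3 libraries, against 75 and 73 wide regions.

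Of the narrow regions, 130 of 174 in DMSO (74.7%, 95% Clopper-Pearson interval 67.6% to 81.0%) were more accessible in the knockdown and 44 less. In ATRA 103 of 134 (76.9%, 68.8% to 83.7%) were more accessible and 31 less. Intervals throughout cover counting error only: they pool the reads of the 2 hairpins, or count regions that share 1 control library as independent. They leave out the spread between the hairpins. They also leave out the listing at p under 0.005, which favours ratios far from 1. An interval clear of 1 is thus not independent evidence of a change. The reads also carry no molecular identifiers. Neither treatment had a narrow region whose control value fell between the hairpins (0 of 174 and 0 of 134), nor a wide one (0 of 149 and 0 of 134). A region with its control between the hairpins could hardly be listed at p under 0.005, so these counts do not show that the hairpins agree. edgeR's quasi-likelihood test, adjusted over each whole table, called 161 of the 161 narrow regions that passed its count filter in DMSO, 119 higher and 42 lower. In the whole DMSO table it called 100% of 309 tested regions, 65.0% of them higher and 35.0% lower. In ATRA it called 125 of 125 narrow regions, 94 higher and 31 lower, where the whole table had 100% of 258 called, 78.3% higher and 21.7% lower. A call here therefore says nothing particular about a narrow region. DESeq2 at the same library sizes called 0 narrow regions in DMSO (71 at an unadjusted p under 0.05) and 0 in ATRA (92 at an unadjusted p under 0.05), and 0% of either whole table. On the scale of the authors' normalized counts, the ratio of knockdown to control is divided by 1.14 in DMSO and by 2.01 in ATRA. The ATRA calls on that scale were 77 higher and 31 lower, where 57.6% of all tested regions were called. With TMM factors computed over the listed regions they were 8 higher and 31 lower, where 26.0% of all tested regions were called. Ratios below are per library size unless the normalized count scale is named.

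**Figure D1:**
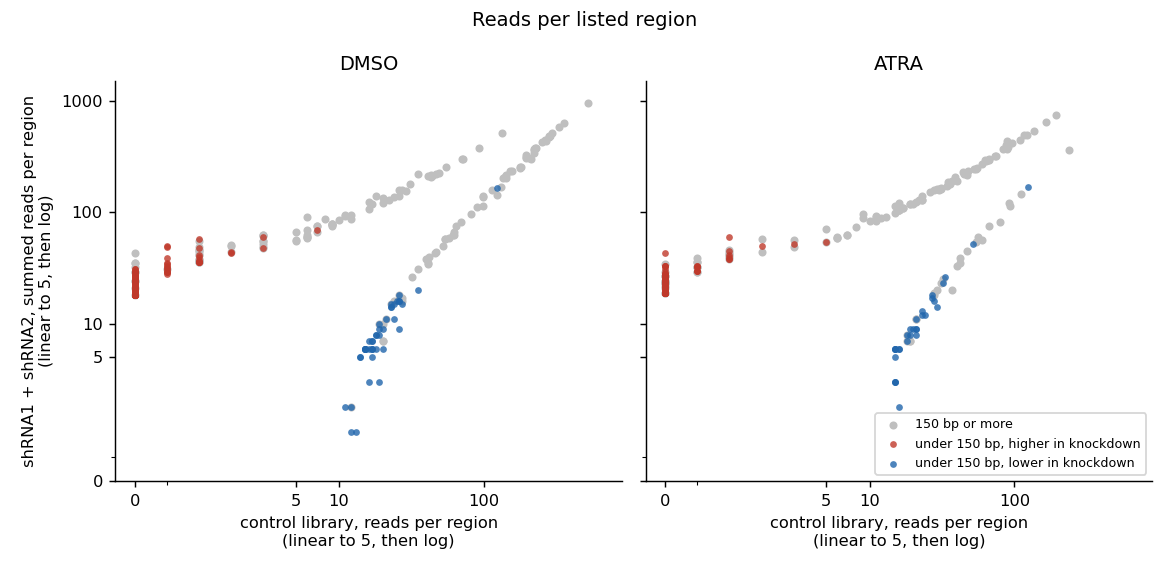
Each point is 1 listed region, with its reads in the control library (x axis) and its summed shRNA1 and shRNA2 reads (y axis), both linear up to 5 and logarithmic above, in DMSO (left) and ATRA (right). Narrow regions that were higher in the knockdown (red) lie at 0 to 7 control reads and those lower (blue) at 11 to 124, while wide regions (grey) extend both branches to higher counts.

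Control reads separated the narrow regions by direction. Those higher in the knockdown had at most 7 control reads in DMSO and 5 in ATRA, and those lower had at least 11 and 15, so no narrow region lay between. Once regions without control reads are set aside, 28 were higher and 44 lower in DMSO, and 16 higher and 31 lower in ATRA. A minimum of 5 control reads left 1 higher against 44 lower and 1 higher against 31 lower. In wide regions that minimum left 48 higher against 66 lower in DMSO and 77 against 25 in ATRA. A listing by p admits low counts only at large ratios. The smallest ratio among higher narrow regions with any control read was 3.98-fold in DMSO and 4.45-fold in ATRA, against 1.56-fold in wide regions of either treatment.

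No control read was found in 102 of 174 narrow regions in DMSO (58.6%, 50.9% to 66.0%) and in 87 of 134 in ATRA (64.9%, 56.2% to 73.0%). Among wide regions the counts were 10 of 149 (6.71%, 3.27% to 12%) and 14 of 134 (10.4%, 5.83% to 16.9%). A hairpin library had none in few narrow regions: shRNA1 was at 0 in 4 in each treatment, and shRNA2 in 4 in DMSO and 0 in ATRA. All of these were lower regions, 8 of 44 in DMSO and 4 of 31 in ATRA. Higher regions are set against 1 control library and lower ones against 2 hairpin libraries, so these shares are not like for like. The regions without control reads were small in both hairpins. Their summed knockdown reads ran from 18 to 31 in DMSO (median 20) and from 19 to 43 in ATRA (median 21), and 54 of the 102 and 49 of the 87 lay within 2 reads of the lowest sum. At the knockdown rate per library size the control would have held between 7.27 and 12.5 reads in DMSO (median 8.08). In ATRA it would have held between 7.82 and 17.7 (median 8.65). On the authors' normalized count scale these expected reads would be lower. A listing by p admits a region without control reads only at a high knockdown sum. The expected reads are therefore a description and not a test. Both hairpins had at least 5 reads in 95 of the 102 and 84 of the 87. With the control set to a floor of 3 reads per library, the increases ran from 2.42-fold to 4.17-fold in DMSO and from 2.61-fold to 5.90-fold in ATRA. These floor values are not confidence limits. The exact 95% lower limit was smaller, for example 4.60-fold at GPR153 in ATRA (floor value 5.90-fold) and 3.20-fold at NIPSNAP3B in DMSO (4.17-fold). On the authors' normalized count scale the floor values were 2.13-fold to 3.68-fold and 1.30-fold to 2.94-fold. The log2 fold changes in the authors' deposited table were 6.08 to 6.88 and 6.18 to 7.35 for the same regions, values that rest on the prior count of the fit and are not bounds.

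The share without control reads was lower in every wide class than in every narrow class, but did not fall steadily through the narrow classes. In DMSO it was 58.6% at the smallest width of 75 bp (29 regions), 70.2% from 76 to 99 bp, 55.8% from 100 to 124 bp and 44.4% from 125 to 149 bp, then 16.7% from 150 to 199 bp and 0% of 53 regions from 400 bp. In ATRA it was 72.7% at 75 bp (11 regions, too few to place), 69.1%, 59.5%, 61.5%, 29.6% and 0% of 54 regions in the same classes. From 200 to 399 bp the share was 4.17% in DMSO and 11.3% in ATRA. The exact intervals of neighbouring classes overlap in both treatments, also either side of 150 bp: they were 27.9% to 61.9% and 7.48% to 30.2% in DMSO, and 40.6% to 79.8% and 13.8% to 50.2% in ATRA. Median summed reads moved with width as well, from 20 at 75 bp to 26.5 at 125 to 149 bp and 371 from 400 bp in DMSO, and from 21 to 27 and 261 in ATRA. The part of read number in the share was not tested.

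**Figure D2:**
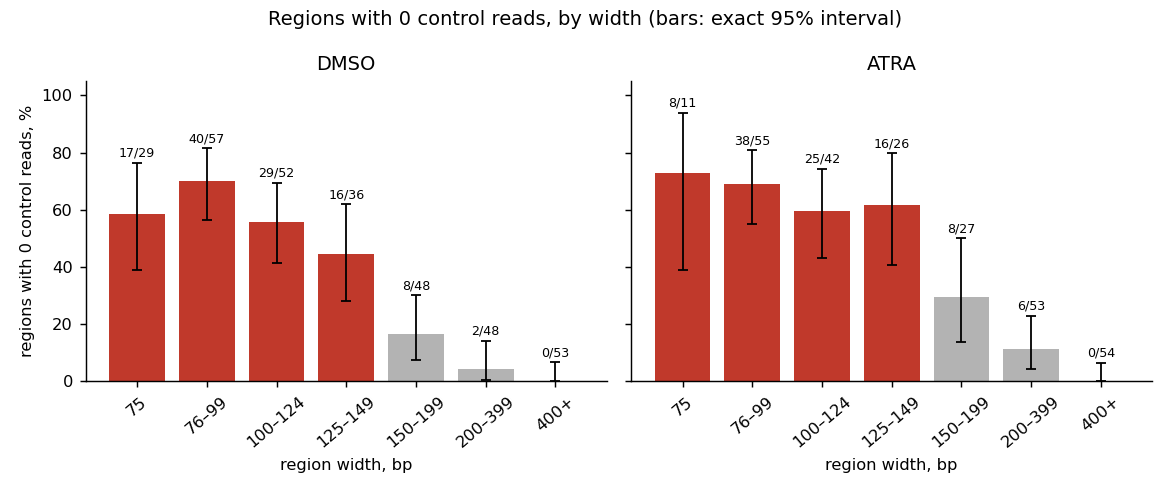
Bars give the percentage of listed regions with 0 control reads in each width class (x axis, bp) for DMSO (left) and ATRA (right), with exact 95% intervals and the counts above them. Narrow classes (red) run from 44.4% to 72.7% and wide classes (grey) from 29.6% to 0%.

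Regions next to the width limit are given as a description. Just inside, the DMSO regions in MGAM and near ARID5A (both 146 bp) had 21, 15 and 2 and 19, 29 and 2 reads with shRNA1, shRNA2 and control. Just outside, those near BACH1 (150 bp) and IRS1 (152 bp) had 25, 21 and 2 and 19, 18 and 2. In ATRA the regions in UNKL (146 bp) and NDUFAF2 (147 bp) had 13, 10 and 0 and 9, 15 and 0, and those in ITGA6 and MLPH (both 151 bp) had 19, 13 and 1 and 6, 2 and 18. At the narrow end, 75 bp, a region in SCMH1, a Polycomb protein gene, had 3, 2 and 14 reads in DMSO and one in NOTCH2NL had 8, 12 and 0. NOTCH2NL belongs to a family of near-identical copies, so its reads may be split among them. In ATRA the narrowest regions named were near NT5C1A (5, 2 and 18 reads) and DUSP12 (9, 10 and 0 reads).

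The best covered narrow region in DMSO lay in RBFOX2, which codes for a splicing regulator (chromosome 22, 36213579 to 36213678, GRCh37.p13). It had 72 reads with shRNA1, 92 with shRNA2 and 124 in the control, or 69.8 ± 8.70 normalized counts (SD, n = 2) against 149. Both hairpins were below the control, and per library size the region was 1.87-fold lower (95% exact interval 1.47 to 2.38). On the normalized count scale it was 2.13-fold lower. In ATRA the best covered region lay in MTRNR2L6 (chromosome 7, 142374413 to 142374512), with 82, 87 and 124 reads, 1.78-fold lower (1.40 to 2.26) per library size and 3.58-fold on the normalized count scale. MTRNR2L6 is a nuclear gene that resembles mitochondrial ribosomal RNA. Mitochondrial DNA is abundant in ATAC-seq libraries, so reads of that origin could be placed there and the value is uncertain. These were also the smallest changes among the lower narrow regions, whose median was 6.10-fold in DMSO and 5.67-fold in ATRA.

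Few narrow regions had reads in every library to compare: 12 in DMSO and 13 in ATRA had at least 5 in each, and all but 1 in each treatment were lower in the knockdown. The exception in DMSO was a region 2294 bp from IGFBP2, which codes for an insulin-like growth factor binding protein (chromosome 2, 217531453 to 217531592), with 41 and 28 reads against 7, 3.98-fold higher (1.83 to 10.3). In ATRA it was a region 6131 bp from PRDM7 (chromosome 16, 90148470 to 90148603), with 26 and 28 reads against 5, 4.45-fold higher (1.79 to 14.2; 2.22-fold on the normalized count scale, edgeR adjusted p = 0.233). PRDM7 has a close paralog, PRDM9, so its reads may be shared. Other well covered higher regions had 4 or fewer control reads. TRPV2, a cation channel gene also expressed in blood cells, had 33 and 25 reads against 2 in DMSO and was 11.7-fold higher (3.10 to 99). A region 4477 bp from CD320, a receptor gene for vitamin B12 uptake, had 26 and 34 against 4 in DMSO. The region in PRKAR1B, a protein kinase A regulatory subunit gene, had 22 and 26 against 4. ATRNL1 had 27 and 25 against 4 in ATRA, where its call was lost on the normalized count scale (edgeR adjusted p = 0.160).

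The lower regions with at least 5 reads in every library included genes of several kinds. In DMSO the largest ratio among them was in GRID1, a glutamate receptor gene of the delta family (chromosome 10, 88109370 to 88109469), with 5, 10 and 27 reads, 4.46-fold lower (2.29 to 9.01). GLTSCR1, a BAF subunit gene, had 12, 8 and 35 reads and was 4.33-fold lower (2.43 to 7.92). SDK1, a synaptic adhesion gene, had 9, 5 and 23 reads and USP12, a deubiquitinase gene, 7, 7 and 23, and both were 4.07-fold lower. A region 2343 bp from NOS3, the endothelial nitric oxide synthase gene, had 9, 7 and 26 reads. In each of these the control exceeded both hairpins by more than the hairpins differed from each other. In ATRA a region 3853 bp from IRS1, which codes for an adaptor of insulin signalling (chromosome 2, 227667360 to 227667468), had 6, 8 and 29 reads and was 5.03-fold lower (2.57 to 10.3). Regions near KCNJ5 (7, 5 and 24 reads), in DPF3 (6, 6 and 23), near NEIL2 (6, 5 and 21) and in ASTN1 (7, 6 and 23) were between 4.86-fold and 4.30-fold lower. The higher-count lower regions in ATRA were in PITPNC1, a phosphatidylinositol transfer protein gene, with 32, 20 and 52 reads (2.43-fold lower, 1.62 to 3.64), and in COL1A2, a collagen gene, with 17, 9 and 33 (3.08-fold lower, 1.79 to 5.37). PITPNC1 was 4.87-fold lower and COL1A2 6.18-fold on the normalized count scale.

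**Figure D3:**
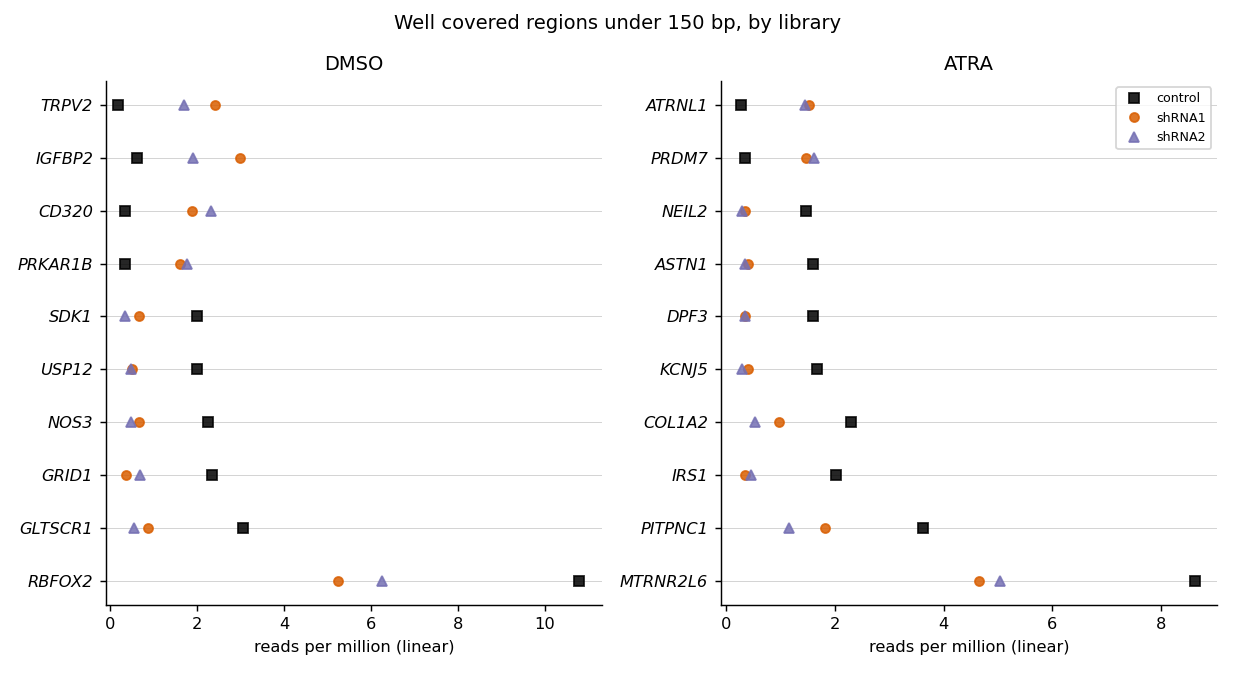
Reads scaled to library size (RPM, x axis, linear) in the control (squares), shRNA1 (circles) and shRNA2 (triangles) library for well covered narrow regions, labelled by nearest gene, in DMSO (left) and ATRA (right). No control value shown lies between the 2 hairpin values, and RBFOX2 and MTRNR2L6 stand far above the others in all 3 libraries.

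At the extremes 1 arm was nearly empty. With 0 control reads, among those with the most knockdown reads in DMSO were regions in TSPYL1 (16 and 15 reads), NIPSNAP3B (18 and 13), in FYB (19 and 10) and in ABLIM1 (12 and 17). At the floor of 3 control reads they were 4.17-fold to 3.90-fold higher. In ATRA such regions lay near GPR153 (28 and 15 reads) and CCER1 (14 and 19), and in PITPNC1 (11 and 22), SCN2A (15 and 18) and NOX5 (13 and 18). These were 5.90-fold to 4.26-fold higher at the floor. The opposite pattern, at most 3 reads with either hairpin, was seen near TOMM5 (2, 2 and 19 reads), SUV420H1 (3, 3 and 18) and MMP12 (3, 2 and 17), and in NEO1 (2, 2 and 16) and KCNIP4 (3, 3 and 15) in DMSO. Their ratios were between 11.8-fold (TOMM5, 3.91 to 47.5) and 6.19-fold lower (KCNIP4, 2.27 to 19.5). In ATRA this held in DLG2 (0, 3 and 16), near LSMEM1 (2, 2 and 15) and in MYO3B (2, 3 and 15), 13-fold, 9.11-fold and 7.28-fold lower.

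The hairpins were not alike in every narrow region. Their library-scaled reads differed by at least 3-fold in 22 of 174 narrow regions in DMSO, shRNA1 being higher in 12 and shRNA2 in 10, and in 15 of 134 in ATRA (7 and 8). Among wide regions this was so in 5 of 149 and 6 of 134. A hairpin at 0 reads counts as such a difference, as in 8 of the 22 and 4 of the 15 narrow regions. Narrow regions also had fewer reads per hairpin than wide ones, and the part of read number in this contrast was not tested. Chi-square per degree of freedom between the hairpins over the narrow regions came to 1.80 for DMSO and to 1.76 for ATRA. Reads drawn at equal rates in unselected regions would give about 1. The listing may favour regions whose hairpins agree, and the expected split rests on the recovered library sizes. The value of 1 is therefore only a guide. A region in the olfactory receptor gene OR8G1, chosen after its values were seen, had 17 reads with shRNA1, 1 with shRNA2 and 0 in the control. Nearly all its reads came from shRNA1.

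Most of the narrow regions listed lay inside a gene. Only regions with a gene within 9992 bp were listed, so the shares and distances below leave out any farther off. In DMSO 131 of 174 narrow regions (75.3%, 68.2% to 81.5%) overlapped their nearest gene, against 79.2% of wide ones (71.8% to 85.4%), and in ATRA 100 of 134 (74.6%, 66.4% to 81.7%) against 88.1% (81.3% to 93.0%). Narrow regions outside genes lay farther off in DMSO, at a median of 4875 bp against 868 bp, and in ATRA at 2456 bp against 1387 bp. Only 4 of 43 outside regions in DMSO lay within 1000 bp of a gene, against 16 of 31 wide ones, while in ATRA it was 12 of 34 against 7 of 16. Within 250 bp there were 2 and 7 narrow regions. In DMSO 74.0% of inside and 76.7% of outside narrow regions were higher, and in ATRA the shares were 82.0% and 61.8%. These shares are descriptions of selected regions that share 1 control library, and no difference between them was tested.

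The genes that held narrow regions were long. Gene spans were taken from RefSeq (GRCh38.p14), where 173 of 174 narrow regions in DMSO and 134 of 134 in ATRA had a matching gene. Inside genes the median span was 156 kb in DMSO and 133 kb in ATRA for narrow regions, and 56.6 kb and 45.0 kb for wide ones. A gene of at least 200 kb held 55 of 130 narrow regions in DMSO (42.3%, 33.7% to 51.3%) and 36 of 100 in ATRA (36.0%, 26.6% to 46.2%). For wide regions it was 20.5% (13.6% to 29%) and 9.32% (4.75% to 16.1%). Such genes make up 6.98% of the 20056 protein-coding genes and 45.5% of their summed span, so the narrow regions lay near the share of gene sequence and the wide regions below it. The share without control reads was 61.8% in long and 57.3% in shorter genes in DMSO, and 63.9% and 73.4% in ATRA, so it was not higher in long genes in both treatments.

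**Figure D4:**
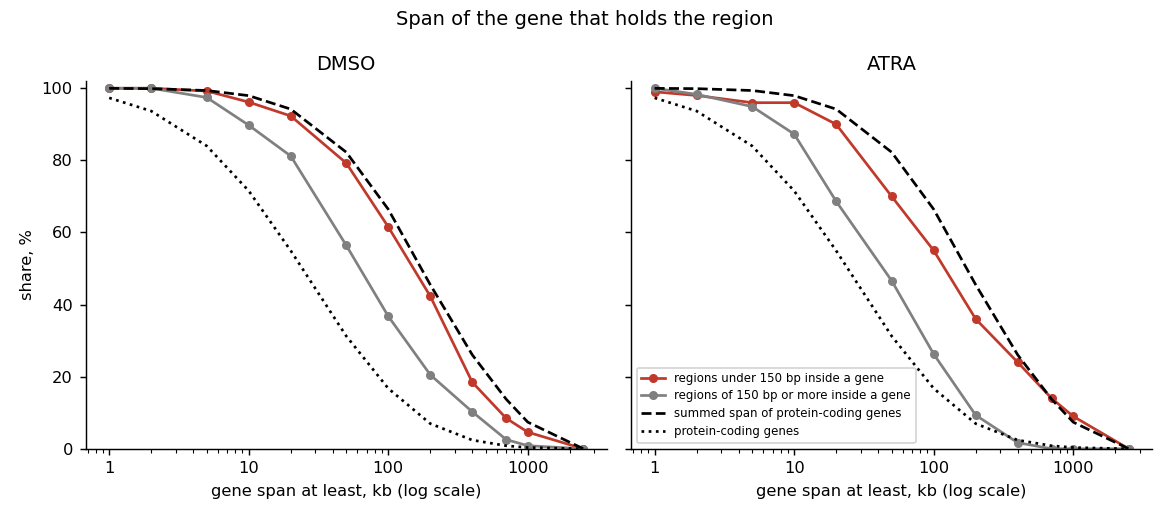
The y axis gives the percentage of regions inside genes whose gene spans at least the length on the x axis (kb, log scale), for narrow (red) and wide (grey) regions in DMSO (left) and ATRA (right), beside the same for the summed span (dashed) and the number (dotted) of protein-coding genes. At 200 kb the narrow regions stand at 42.3% and 36.0%, the wide ones at 20.5% and 9.32% and the summed span at 45.5%.

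Genes of tissue-restricted families were sought by symbol in 6 lists that cover ion channels, neurotransmitter receptors and release, guidance and adhesion, muscle, epithelia, and sensory and germline genes. They were nearest to 28 of 174 narrow regions in DMSO (16.1%, 11% to 22.4%) and 20 of 134 in ATRA (14.9%, 9.36% to 22.1%), and to 5 of 149 wide ones (3.36%, 1.10% to 7.66%) and 7 of 134 (5.22%, 2.13% to 10.5%). Counting only regions inside genes, the shares were 16.8% and 16.0% for narrow and 4.24% in both treatments for wide regions, while these families cover 13.3% of the summed span of protein-coding genes. Of the 28, 19 were higher and 9 lower, with 14 lacking control reads, and of the 20, 14 were higher and 6 lower, with 13 lacking them. Some family members, such as TRPV2, P2RX4 and KCNN4, are also known in blood cells.

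Ion channel genes, which cover 2.02% of the summed span of protein-coding genes, had 10 narrow regions in DMSO (7 higher and 3 lower) and 7 in ATRA (5 and 2), against 0 and 1 wide regions. Of all narrow regions 74.7% were higher in DMSO and 76.9% in ATRA. In DMSO the region in CACNA1A, a neuronal calcium channel gene, had 2, 0 and 13 reads, and that in KCNIP4, a potassium channel partner gene, 3, 3 and 15. Against them, the region in CACNA2D1, another calcium channel subunit gene, had 13, 9 and 0 and that in RYR1, the muscle calcium release channel gene, 21, 12 and 1. Members of 1 family thus lay on both sides. In ATRA SCN2A and KCNB2 (8, 11 and 0 reads) were higher, and TRPC6 (0, 4 and 15 reads) was lower.

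Neurotransmitter receptor and release genes, with 3.45% of the span, had 8 narrow regions in DMSO (4 higher and 4 lower) and 2 in ATRA (1 and 1). They had 0 wide regions in DMSO and 2 in ATRA. Among regions inside genes their narrow shares were 4.58% in DMSO and 2% in ATRA. In DMSO RIMS2, a gene of synaptic vesicle release, had 0, 6 and 15 and was 6.19-fold lower (2.27 to 19.5). OPCML, a cell adhesion gene of neurons, had 10, 6 and 26 reads and was 4.02-fold lower (2.08 to 8.03). Guidance and adhesion families, with 4.75% of the span, had 7 narrow regions in DMSO (5 higher and 2 lower) and 5 in ATRA (4 and 1). They had 2 wide regions in DMSO and 3 in ATRA. Among regions inside genes their narrow shares were 4.58% and 4%, slightly below the share of span. Of these families EPHA6, an ephrin receptor gene, had a narrow region with 11, 8 and 0 reads in DMSO. The netrin receptor gene DCC had 2 regions in ATRA, with 14, 10 and 0 and 10, 10 and 0 reads. NRG1, the neuregulin gene, had 21, 17 and 2 reads in ATRA and was 7.82-fold higher (2.02 to 67.0; edgeR adjusted p = 0.132 on the normalized count scale).

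Myeloid genes, sought in 4 lists with 244 symbols, were nearest to 6 narrow regions in DMSO (3.45%, 1.28% to 7.35%) and 5 in ATRA (3.73%, 1.22% to 8.49%). Among wide regions they were nearest to 7 in DMSO (4.70%) and 2 in ATRA (1.49%). Counting only regions inside genes, the shares in DMSO and ATRA were 2.29% and 4% for narrow and 4.24% and 1.69% for wide regions. These lists hold 1.21% of protein-coding genes and 1.10% of their summed span. Of the 6 narrow regions in DMSO, 5 were higher and 1 lower. The highest ratio was near CIITA, a regulator of antigen presentation genes (chromosome 16, 10965009 to 10965151), with 29, 21 and 1 reads. A region 3908 bp from the granule protein gene AZU1 followed with 20, 15 and 1. Both ratios rest on 1 control read, and their intervals, 3.46 to 813 and 2.38 to 574, are correspondingly wide. FYB, an adaptor gene of immune cells, had no control read, and a region 118 bp from GPRC5A, a retinoic acid inducible gene, had 9, 10 and 0. The lower region lay in ENTPD1, an ectonucleotidase gene, with 2, 4 and 17 reads (7.01-fold lower, 2.64 to 21.7). The split of 5 and 1 depends on which genes the lists hold. MMP12, whose region was lower in DMSO (3, 2 and 17 reads), is not in them.

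In ATRA all 5 myeloid regions were higher with 0 control reads, where 76.9% of all narrow regions were higher and 64.9% had 0 control reads. STAT4, a cytokine signalling factor gene, had 20 and 8 knockdown reads and was 3.84-fold higher at the floor of 3 control reads. ARHGAP15, a Rac regulator gene, had 15 and 8 (3.16-fold at the floor), and CEBPD, a granulocyte and monocyte transcription factor gene, had 12 and 9 (2.88-fold). PTPRJ, a receptor phosphatase gene, had 13 and 7, with its region 2154 bp away. ZBTB16, whose product PLZF is fused to the retinoic acid receptor in a rare form of promyelocytic leukaemia, had 5 and 14 (2.61-fold at the floor). The median floor value of all ATRA narrow regions without control reads was 2.88-fold, and the 5 lay on both sides of it. On the normalized count scale the floor values of the 5 were between 1.30-fold and 1.92-fold. Granule protein genes had 2 narrow regions in DMSO and 0 in ATRA.

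**Figure D5:**
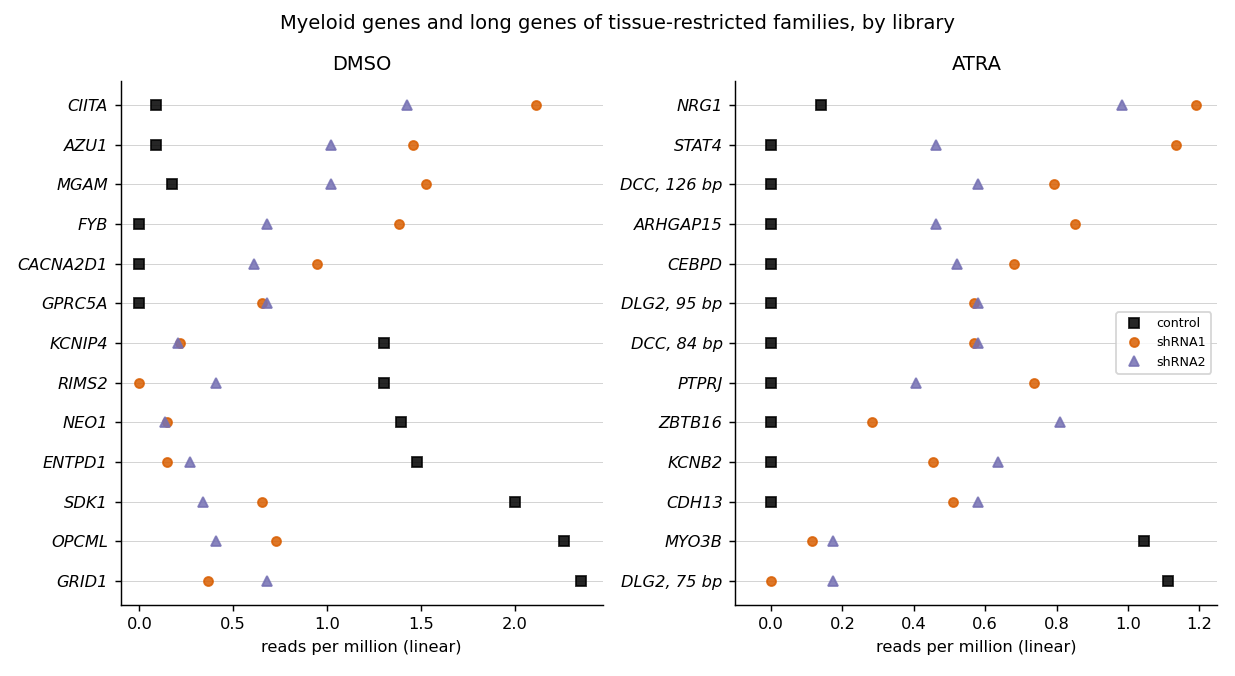
Reads scaled to library size (RPM, x axis, linear) in the control (squares), shRNA1 (circles) and shRNA2 (triangles) library for narrow regions nearest to myeloid genes or inside long genes of tissue-restricted families, in DMSO (left) and ATRA (right). In ATRA all of those higher in the knockdown, except NRG1, have the control at 0, and in DMSO the lower ones, from KCNIP4 to GRID1, have both hairpins left of the control.

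Several genes held more than 1 narrow region in the same treatment, in 8 pairs. In 5 pairs, all in ATRA, the regions lay on opposite sides of the control: DLG2 (10, 10 and 0 reads against 0, 3 and 16, 216545 bp apart), KALRN (10, 17 and 0 against 5, 1 and 15), CD247 (6, 13 and 0 against 4, 4 and 19), KCNJ5 (6, 13 and 0 against 7, 5 and 24) and PITPNC1 (11, 22 and 0 against 32, 20 and 52). In each the higher region had 0 control reads, and the regions lay from 13119 bp (CD247) to 216545 bp apart. The other 3 pairs had 1 direction. DCC and MED13L had both regions higher. The regions near GAL, the galanin gene, were lower in DMSO with only 70 bp between them (chromosome 11, 68444978 to 68445078 and 68445149 to 68445233), at 5, 3 and 18 and 2, 7 and 19 reads. A narrow region in USP12 lay 485 bp from a wide one of 588 bp, which had 143, 91 and 157 reads and was also lower.

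For some regions outside genes a second region of the gene showed on which side they lay, with the strand given in the tables. The narrow DMSO region 118 bp from GPRC5A (chromosome 12, 13043763 to 13043837) was upstream of the gene's start, and a wide ATRA region 253 bp away lay inside the gene (9, 14 and 0 reads). Upstream too were the regions near GAL, KCNJ5, IRS1, BCL7A and MED13L, between 3853 bp and 7542 bp from their genes, and the region near SEL1L was downstream. At IRS1 the wide DMSO region 688 bp upstream was higher in the knockdown, and the narrow ATRA region was lower. No test compared them.

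In both treatments 1 narrow region was listed at the same coordinates (0.575% of those in DMSO and 0.746% in ATRA), as was 1 wide region (0.671% and 0.746%). The narrow one lay in CDH13, the T-cadherin gene (chromosome 16, 83480548 to 83480634). It had 13, 7 and 0 reads in DMSO and 9, 10 and 0 in ATRA. At the floor of 3 control reads it was 2.69-fold and 2.61-fold higher (1.30-fold in ATRA on the normalized count scale). In ATRA it did not pass edgeR's count filter. PTPRN2 had narrow regions in both treatments 123286 bp apart, with 10, 11 and 0 reads in DMSO and 9, 21 and 1 in ATRA.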

How the data were processed

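ATAC-seq of 6 NB4 libraries was used as deposited in 1 table of regions per treatment (GRCh37.p13, with bcl2fastq, STAR, Picard 2.5.0, MACS2 and edgeR, per the submitters' processing notes). The sources used here do not give their roles and settings, or how peaks were pooled and duplicates handled. Per the file headers the tables hold raw read counts. The authors' normalized counts are a signal equal to the raw count times 1 factor per library, per the file headers and values. The deposited log2 fold change, log2 CPM, F score and unadjusted p-value are from the authors' edgeR table, per the file headers.

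Since the tables carry no totals, library sizes were recovered by least squares from the authors' log2 values, with a largest deviation in log2 fold change of 0.00658 (DMSO) and 0.00173 (ATRA). Each treatment was fitted alone with edgeR 4.0.16 (quasi-likelihood, R 4.3.3, filterByExpr minimum 10, Benjamini-Hochberg threshold 0.05 over the whole table), checked on simulated counts. Alternatives were the normalized scale, TMM, no filter, DESeq2 1.42.0, other width limits (120 and 200 bp) and each hairpin alone. Ratios set summed knockdown against control reads per library size, with exact 95% intervals, and with 0 control reads a floor of 3 reads in that library. The rule named, per treatment, the best covered regions, the extreme ratios with 5 reads in every library, the extremes with an empty arm, myeloid genes, up to 8 regions in long tissue-restricted genes, widths at the limits and shared coordinates. Members and lists were chosen with earlier results of these data known. The table's strand matched RefSeq's in 253 of 253 DMSO and 207 of 208 ATRA genes found there. Some regions that the rule names are not reported here.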

Additional observations from a re-analysis of the deposited data

How the results depend on the processing

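No paired analysis was possible because each treatment has a single control library, so control and knockdown share fewer than 2 numbers. With either hairpin alone, 74.7% of narrow regions were higher in DMSO and 76.9% in ATRA. No control value lay between the hairpins, so leaving one out could not move this share, and ratios this large could not change side on the authors' scale. Restricting to control reads turned that majority: 38.9% in DMSO and 34.0% in ATRA were higher with at least 1 control read, and 2.22% and 3.12% with at least 5, a choice that removes regions by the value the direction rests on. DESeq2 at the recovered sizes called 0 in DMSO (71 at an unadjusted p under 0.05) and 0 in ATRA (92), against 161 and 125 with edgeR. In ATRA the calls were 39 with TMM factors and 9 (of 23 given an adjusted p) with DESeq2's own size factors (21.9% called in the whole table), which gave none of the DMSO narrow regions an adjusted p. The cause was not tested. At most 2 control reads were found in 71.8% (DMSO) and 74.6% (ATRA), and 0 control reads in 49.5% of DMSO regions under 200 bp. Inside a gene or within 1000 bp lay 83.6% in ATRA. Genes of at least 100 kb held 61.5% and 55.0%, and of at least 400 kb 18.5% and 24.0%. The other 27 of these summary values stayed within their interval or within 1.5 times, and 0 named regions changed direction. Few reads limit every ratio, and the single control has no replicate error.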
